A study of Mus musculus with 2 samples.

Results

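The G2 and mitosis genes are a set of 39 genes whose products condense the chromosomes, drive entry into mitosis, build the spindle and divide the cell. The members were given as a list of symbols, and all 39 were found, once each, among the 31053 genes counted in both libraries. They were followed in cultures grown from the bone marrow of wild-type 129Sv mice for 7 days with 50 ng/ml macrophage colony-stimulating factor and 10% serum. On day 7 the cultures of both groups were treated for 18 h, one with 1 µg/ml of a truncated Tamm-Horsfall protein (THP, or uromodulin, a kidney protein) that does not form polymers, the other with the 5% dextrose vehicle. TrypLE was used to lift the cells, dead ones were removed, and single-cell Chromium libraries were made, in which a unique molecular identifier (UMI) marks each captured RNA molecule. The sources used here do not give how many mice or dishes the cells came from.

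There was 1 library per group. No p-value can be given, no difference could be checked against replicates, and the effect of treatment cannot be told apart from that of the dish or the library. Every interval below is a 95% interval for counting error only. After filtering, 12123 THP cells with a median of 16113 UMIs and 10978 vehicle cells with a median of 17223 UMIs were kept, and 38 kept cell barcodes occurred in both libraries. The label calls the cells macrophages. By marker genes, 5301 THP and 3281 vehicle cells fell in a macrophage gate, and the cultures also held neutrophil (1768 and 2165), monocyte (944 and 1403) and progenitor (757 and 979) gates, with 3353 and 3150 cells in none. Doublets were not removed. A level is given as counts per 1000000 UMIs (CPM) of the cells summed, and a ratio is log2 of CPM + 1, THP over vehicle, so that values below 0 are lower in the THP library. CPM is not corrected for transcript length, so levels are compared between libraries and not between genes.

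Most of these genes are nearly silent in resting cells and are transcribed late in the cell cycle. Their promoters are known for a pair of sequence elements, CCAAT boxes, bound by NF-Y, and the cell cycle genes homology region (CHR), bound by the MuvB complex, which represses the genes in resting cells and, with B-Myb and FoxM1, activates them in G2. Cdk1 with its cyclins starts mitosis, the spindle checkpoint holds the cell in metaphase, and the anaphase-promoting complex ends mitosis by marking cyclins and other proteins for destruction. Macrophages and their marrow precursors divide in culture with macrophage colony-stimulating factor, whereas mature neutrophils have left the cycle.

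The promoters of some members from both ends of the range of ratios are shown to let these elements be seen in the genes whose levels follow. RefSeq promoter sequences of build GRCm38.p6 matched 33 of the 39 members, in 35 windows, and the 250 bases before each start were searched on both strands for CCAAT and for the CHR in the form TTTGAA or the form TTTAAA. Matches to the CHR cannot overlap each other, and a CCAAT can share 1 base with a CHR. Each line below gives the last 120 bases before the start, 5′ to 3′ on the gene's strand, with each match on either strand in capitals. A CCAAT on the other strand reads ATTGG here, and a TTTGAA on the other strand reads TTCAAA. Mki67 lies at chr7:135716380-135716499 (minus strand), Kif11 at chr19:37376262-37376381 (plus strand) and Ube2c at chr2:164769809-164769928 (plus strand). Cdc20 lies at chr4:118437344-118437463 (minus strand) and Ccnb1 at chr13:100786487-100786606 (minus strand). Cdk1 lies at chr10:69352913-69353032 (minus strand) and Cks2 at chr13:51645112-51645231 (plus strand).
Mki67: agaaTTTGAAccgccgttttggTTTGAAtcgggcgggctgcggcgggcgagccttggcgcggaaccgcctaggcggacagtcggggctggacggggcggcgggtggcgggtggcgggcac
Kif11: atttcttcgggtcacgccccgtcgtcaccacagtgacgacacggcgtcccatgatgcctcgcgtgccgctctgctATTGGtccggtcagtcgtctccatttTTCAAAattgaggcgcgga
Ube2c: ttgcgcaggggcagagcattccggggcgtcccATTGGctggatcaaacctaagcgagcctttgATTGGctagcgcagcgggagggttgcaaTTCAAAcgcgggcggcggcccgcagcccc
Cdc20: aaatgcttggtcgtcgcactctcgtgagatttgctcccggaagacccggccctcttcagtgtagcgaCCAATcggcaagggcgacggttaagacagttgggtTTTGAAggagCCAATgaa
Ccnb1: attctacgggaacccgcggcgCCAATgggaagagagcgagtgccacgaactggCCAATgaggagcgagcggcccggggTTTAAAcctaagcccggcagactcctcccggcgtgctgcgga
Cdk1: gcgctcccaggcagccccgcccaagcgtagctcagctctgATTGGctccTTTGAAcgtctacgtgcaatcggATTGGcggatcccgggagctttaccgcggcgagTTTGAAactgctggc
Cks2: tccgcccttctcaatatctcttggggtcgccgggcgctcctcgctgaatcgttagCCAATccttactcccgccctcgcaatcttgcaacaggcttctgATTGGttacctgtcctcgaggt

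Mki67 and Kif11, the members past 2-fold lower in the THP library, and Ube2c, Cdc20, Ccnb1 and Cdk1, which were higher there, held a CHR in these stretches. Cks2, also higher with THP, held no CHR in its 250 bases, and the CHR matches of 2 more higher members lay farther upstream, at 220 to 215 bases in Birc5 and 167 to 162 bases in Ccnb2. Birc5, whose ratio of 0.24 lay above those of Cdc20, Ccnb1 and Cdk1, is not among the printed stretches. No CCAAT was found in its 250 bases. The CHR was thus found in members on either side of 0 and was missing from some. The CHR of Kif11 lay 19 to 14 bases before the start, that of Ube2c 29 to 24 bases and that of Cdc20 18 to 13 bases. Mki67 had its CCAAT matches farther upstream, at 188 to 137 bases before the start, outside the printed stretch. Of the 35 member windows, 54.3% held a CHR, against 25.2% of all 32851 windows of the same length. The form TTTGAA was in 40% of member windows and 16.0% of all windows. The form TTTAAA was in 17.1% and 12.1%, shares that lay closer together. At least 1 CCAAT was in 77.1% of member windows and 33.8% of all windows, at least 2 were in 51.4% and 10.1%, and a CHR together with a CCAAT in 48.6% and 8.78%. A match describes letters and is not a measured binding site.

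Summed over all kept cells, the 39 members made up 4346 CPM (4338 to 4355, from 977123 UMIs) of the THP library and 5522 CPM (5512 to 5532, from 1146725 UMIs) of the vehicle library. The log2 ratio of the sums was -0.35 (-0.35 to -0.34). All 39 members passed the minimum of 10 CPM in at least 1 library. Of them, 31 were lower and 8 higher in the THP library, and the median log2 ratio was -0.44. Across all 8012 genes at that minimum the median was -0.18 and 67.6% of genes were below 0. Only Mki67 and Kif11 were at least 2-fold lower, against 2.97% of all genes tested, and no member was 2-fold higher, against 0.911% of all genes. At 1.5-fold 15 members were lower, against 17.3% of all genes.

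The scaling of the libraries bore on these directions. With trimmed mean of M values (TMM) factors every ratio rose by 0.29 on the log2 scale, the median of all genes became 0.10, with 40.2% of them below 0, and that of the members -0.16. Then 25 members were lower and 14 higher, since Ccna2, Aurka, Aurkb, Plk1, Tacc3 and Ckap2l changed sign, no member was 2-fold lower, and the ratio of the sums was -0.06.

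**Figure D1:**
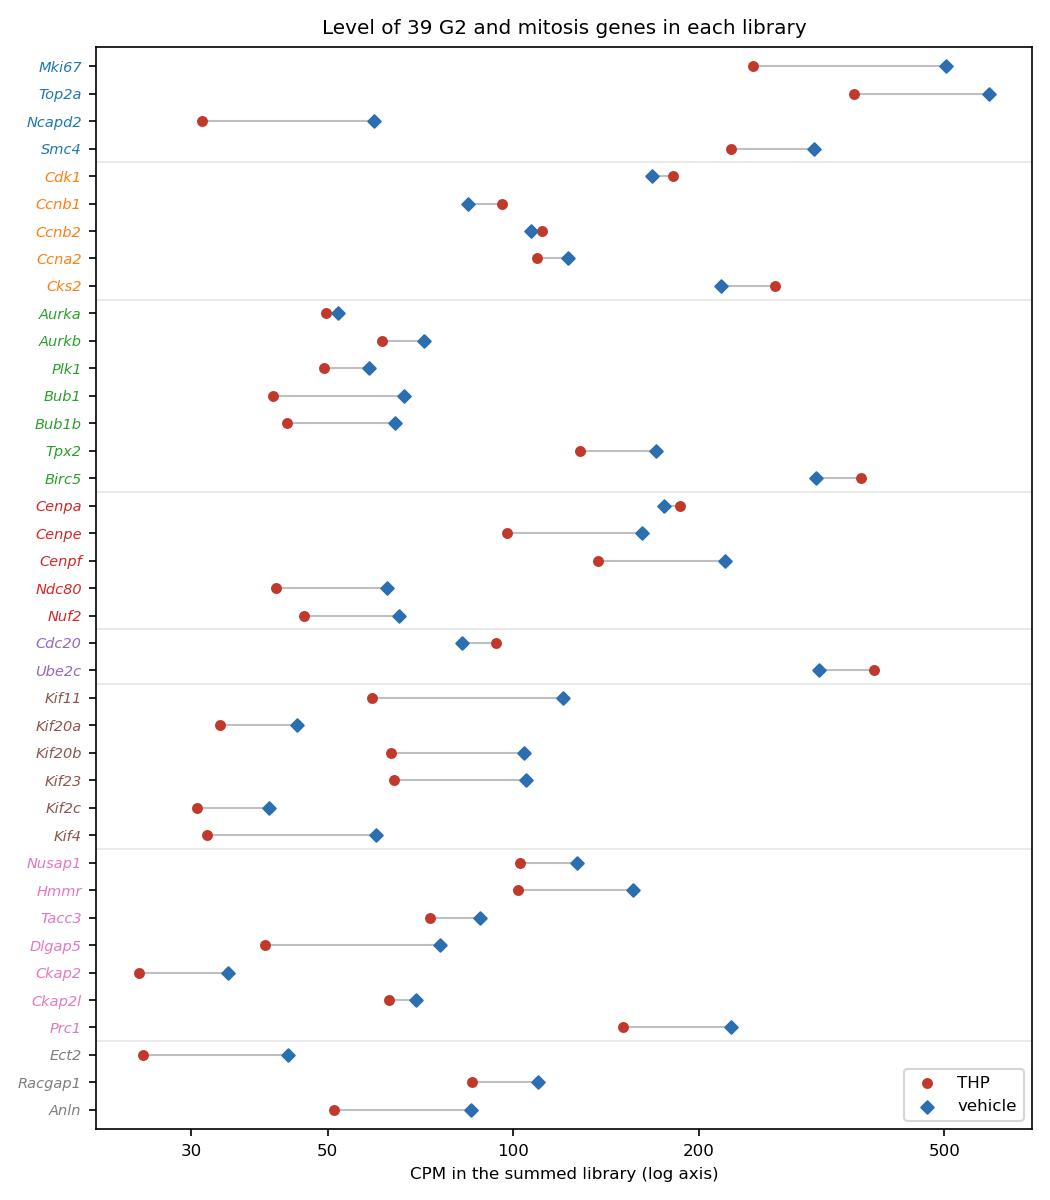
Level of each member in the THP library (red circles) and the vehicle library (blue diamonds), in CPM on a log axis, ordered and coloured by role; 1 library per group, so no error bars are drawn. The longest gaps are those of Mki67 and Kif11, and the THP point lies to the right for 8 members, among them Ube2c, Cks2 and Birc5.

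The genes of chromosome structure were lower in the THP library, all 4 of them under either scaling, with a median log2 ratio of -0.82. Mki67 (ENSMUSG00000031004, chromosome 7, 135689784 to 135716361, minus strand), whose protein Ki-67 coats mitotic chromosomes and keeps them apart, had 245 CPM (243 to 247) with THP and 503 CPM (500 to 507) with vehicle. This was the lowest ratio of any member, -1.04, a 2.05-fold lower level. Top2a (ENSMUSG00000020914, chromosome 11, 98992943 to 99024189, minus strand), the topoisomerase that untangles sister chromatids, stood at 356 CPM (354 to 359) in the THP library and at 592 CPM (589 to 595) in the other, a ratio of -0.73. Ncapd2, a subunit of condensin I, stood at 31.3 against 59.3 CPM with a ratio of -0.90. The ratio nearest 0 in the group was that of Smc4, the ATPase shared by both condensins, at 226 against 307 CPM and -0.44. Coordinates here are those of the GENCODE M21 annotation of GRCm38.

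Cdk1 and its partners lay on the other side of 0. Cks2 (ENSMUSG00000062248, chromosome 13, 51645232 to 51650660, plus strand), a small subunit that binds Cdk1, had 265 CPM (263 to 268) with THP and 217.5 CPM (215.5 to 219.5) with vehicle, a ratio of 0.29. Ccnb1, the cyclin B1 gene, had 95.96 CPM (94.69 to 97.25) against 84.49 CPM (83.24 to 85.75), a ratio of 0.18. Cdk1 itself (ENSMUSG00000019942, chromosome 10, 69335146 to 69352938, minus strand) measured 181 CPM (180 to 183) with THP and 168 CPM (166 to 170) with vehicle, a ratio of 0.11. Cyclin B2, encoded by Ccnb2, differed little, with 111 against 107 CPM. Ccna2, for cyclin A2, which acts earlier, in S phase and G2, was the exception at 109 against 123 CPM and a ratio of -0.17, which became 0.12 with TMM factors. It overlaps Exosc9 on the opposite strand, at 32.7 and 31.9 CPM. Over the 5 genes the median was 0.11.

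Both partners of the anaphase-promoting complex were higher in the THP library under either scaling. Ube2c (ENSMUSG00000001403, chromosome 2, 164769898 to 164778822, plus strand), the enzyme that hands ubiquitin to the complex, had 385 CPM (383 to 388) against 313 CPM (310 to 315). Its ratio of 0.30 was the highest among the members over all kept cells, but in each marker gate that of Cks2 was higher. In the neutrophil gate the ratio of Ube2c was -0.04. Cdc20, the activator that the spindle checkpoint holds in check, had 93.7 CPM with THP and 82.4 CPM with vehicle, a ratio of 0.18. Cdc20 overlaps Elovl1 on the opposite strand, which was at 83.9 and 63.2 CPM, and no source used here says whether counting took strand into account, a limit for each overlapping pair named here.

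Among the 7 mitotic kinases and their partners, 6 were lower and Birc5 was higher, with a median of -0.24. Birc5 (ENSMUSG00000017716, chromosome 11, 117849251 to 117855743, plus strand), for survivin, which targets Aurora B to the centromere, had 367 CPM (364 to 369) with THP and 309 CPM (307 to 312) with vehicle, a ratio of 0.24. Bub1, a spindle checkpoint kinase, was at the low end with 40.8 CPM (39.9 to 41.6) against 66.5 CPM (65.4 to 67.6), a ratio of -0.69. Bub1b, for the checkpoint protein BubR1, followed at -0.57, and Tpx2, which activates Aurora A on the spindle, at -0.41. The Polo-like kinase gene Plk1, with 49.3 against 58.3 CPM, and the Aurora kinase genes Aurka and Aurkb lay between -0.24 and -0.07, and these were the kinases whose sign turned with TMM factors.

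In the centromere and kinetochore group 4 of 5 genes were lower under either scaling, with a median of -0.59. Cenpe, a kinesin that moves chromosomes to the spindle equator, had 97.7 CPM (96.4 to 99.0) against 162 CPM (160 to 163), a ratio of -0.72. Cenpf, a large outer kinetochore protein, had 137 against 220 CPM and a ratio of -0.68. The genes of the Ndc80 complex, which grips spindle microtubules, stood at -0.59 for Ndc80 and -0.50 for Nuf2. Cenpa, the histone variant that marks the centromere, was the exception with 186 CPM (184 to 188) against 176 CPM (174 to 177), a ratio of 0.08.

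All 6 kinesins were lower under either scaling, with a median of -0.70. Kif11 (ENSMUSG00000012443, chromosome 19, 37376403 to 37421859, plus strand), the motor Eg5 that pushes the spindle poles apart, had 58.9 CPM (57.9 to 60.0) with THP and 120 CPM (119 to 122) with vehicle. Its ratio was -1.02, a 2.02-fold lower level. Kif4, the chromokinesin, had 31.8 against 59.8 CPM and a ratio of -0.89. Kif20b and Kif23, both needed for cytokinesis, had ratios of -0.70. Kif20a, a motor of the central spindle, had -0.40, and Kif2c, which takes microtubules apart, had 30.7 against 40.1 CPM and a ratio of -0.38. Kif4 overlaps Pdzd11 (50.7 and 46.7 CPM) and Kif20a overlaps Cdc23 (22.8 and 28.6 CPM), each on the opposite strand.

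The 7 spindle proteins were all lower, with a median of -0.46, and Tacc3 and Ckap2l turned higher with TMM factors. Dlgap5, which stabilises the microtubules that reach the chromosomes, had 39.6 CPM (38.7 to 40.4) against 75.9 CPM (74.7 to 77.1), a ratio of -0.92. Hmmr, which binds hyaluronan and spindle microtubules, had a ratio of -0.62. Prc1, which bundles the central spindle, had 151 against 225 CPM and -0.58, and Ckap2, a microtubule-associated protein, 24.7 against 34.4 CPM and -0.46. Nusap1, a microtubule bundler, at -0.30, Tacc3, which crosslinks kinetochore fibres, at -0.27, and Ckap2l, at -0.14 with 62.8 against 69.4 CPM, lay nearest 0. Nusap1 overlaps Oip5 (10.3 and 12.4 CPM), Tacc3 overlaps Tmem129 (7.52 and 8.26 CPM) and Prc1 overlaps Rccd1 (3.95 and 5.65 CPM), each on the opposite strand.

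The 3 cytokinesis genes were lower under either scaling. Ect2, the exchange factor that activates RhoA at the division plane, had 25.1 against 43.1 CPM and a ratio of -0.76. Anln, for the ring scaffold anillin, had 51.1 against 85.3 CPM and -0.73, and Racgap1, which works with Kif23 in centralspindlin, 85.8 against 110 CPM and -0.35.

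The ratios were ordered by transcript length. Over the 39 members Spearman's rho between the ratio and the longest annotated transcript was -0.77, given as a description of genes that share the same 2 libraries. The same held more loosely for all genes with a length, at -0.55 over 8008 genes. The 13 members with the shortest transcripts (692 to 3137 bases) had a median ratio of -0.14, with 8 lower and 5 higher, while all genes from 692 to 3333 bases had a median of -0.0026. The 13 members in the middle had a median of -0.57 (11 lower), and all genes from 3334 to 4364 bases -0.25. For the 13 longest (4365 to 11130 bases) the median was -0.73 (12 lower), and for all genes in that range -0.45.

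When each ratio was set against the median of genes in the same of 20 length bins, 30 members were lower and 9 higher, with a median of -0.20 against 0 for all genes. No member then reached 2-fold. The corrected ratios of the members still fell with length, with a Spearman's rho of -0.45, so the correction did not remove the order by length. Kif11 (-0.64), Dlgap5 (-0.63), Ncapd2 (-0.53) and Ect2 (-0.52) were the lowest, and Mki67 was at -0.43. At the other end were Cdk1 and Birc5 (both 0.41), Ube2c (0.34), Cenpa (0.33) and Ccnb1 (0.23), and of the 8 members higher before the correction 7 were higher after it, all but Ccnb2 (-0.01). Cenpf, with the longest transcript of the set, went from -0.68 to -0.07. What links the ratio to length was not tested.

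**Figure D2:**
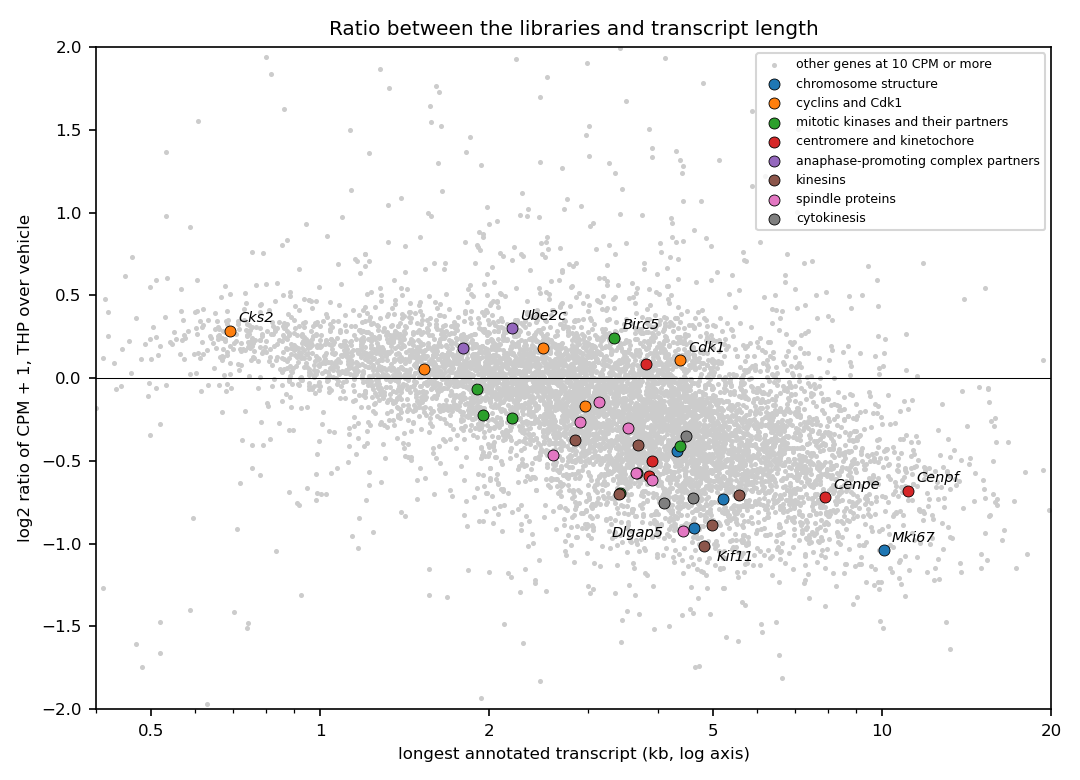
Log2 ratio of CPM + 1, THP over vehicle, against the longest annotated transcript in kb on a log axis; grey points are other genes at 10 CPM or more within the axes, coloured points the 39 members by role. Members and other genes slope downwards with length, Cdk1 and Birc5 lie above genes of like length and Kif11 and Dlgap5 below.

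The members were detected in all 4 marker gates, which were set without any of them. Their summed level was 4341 CPM with THP and 5263 CPM with vehicle in the macrophage gate (log2 ratio -0.28), 5108 and 6452 CPM in the monocyte gate (-0.34) and 4248 and 5147 CPM in the progenitor gate (-0.28). In the neutrophil gate it was 3192 CPM (3154 to 3231) and 4983 CPM (4941 to 5024), a ratio of -0.64 (-0.66 to -0.62). With TMM factors the macrophage and progenitor gates came to 0.0073 and 0.0079, on the other side of 0, and the neutrophil gate to -0.36. Here and below these factors are those of all kept cells, with the same shift of 0.29 added in every gate. No gate was scaled by factors of its own.

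By gene, 28 members were lower in the THP library in all 4 gates, 2 (Ccnb1 and Cks2) were higher in all 4, and 9 were mixed; with TMM factors the counts were 23, 9 and 7. Of the 6228 genes at 10 CPM in every gate, 53.4% were lower in all 4 and 20.5% higher in all 4, and 28.3% were lower in all 4 with TMM factors. The neutrophil gate had the lowest ratio of the 4 for 38 members, Kif23 being the exception. This gate also had the lowest ratio for 52.9% of the 6228 genes, and the median over all genes tested was -0.28 in it and -0.16 to -0.17 in the other 3. Members at least 2-fold lower numbered 9 in the neutrophil gate, where 7.26% of all genes tested passed the same rule. They were Mki67, Ncapd2, Cenpf, Kif11, Kif20a, Kif4, Hmmr, Dlgap5 and Anln. The monocyte gate had 1, Mki67, against 2.53% of genes, the progenitor gate 3 (Mki67, Ncapd2 and Kif11) against 2.31% of genes, and the macrophage gate 0, against 2.31% of its genes.

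Mki67 stood at 233 against 555 CPM in the neutrophil gate, 293 against 607 in the monocyte gate, 210 against 451 in the progenitor gate and 240 against 448 in the macrophage gate. The THP value was thus the lower one in each gate. The lowest ratio of any member in a gate was that of Dlgap5 in neutrophils, -1.44, with 27.7 against 77.1 CPM from 233 and 865 UMIs. Cks2 was the member with the highest ratio in a gate, 0.51 in macrophages, with 220 against 154 CPM. In the neutrophil gate Cks2 had 309 against 276 CPM and a ratio of 0.16.

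The neutrophil gate differed between the libraries in more than the members. Its cells were shallow, with medians of 3570 and 3905 UMIs, and mature neutrophils made up 20.1% of it with THP and 26.1% with vehicle. The members summed to 480 CPM in the mature neutrophils of the THP library and 786 CPM in those of the vehicle library. Without these cells the gate's ratio was -0.65, from 3499 against 5489 CPM, and 12 members were at least 2-fold lower, against 6.59% of all genes tested in those cells. All 6 stromal markers were detected in the gate in both libraries, at 4.64 CPM in sum with THP and 502 CPM with vehicle, where Col1a1, Col1a2 and Sparc gave most of the UMIs. Leaving out the 2 cells of each library with 3 or more of these markers left the ratio at -0.64. So few cells could hardly move it, and the part of the stromal UMIs that they held was not counted. Both exclusions were chosen after the data were seen.

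**Figure D3:**
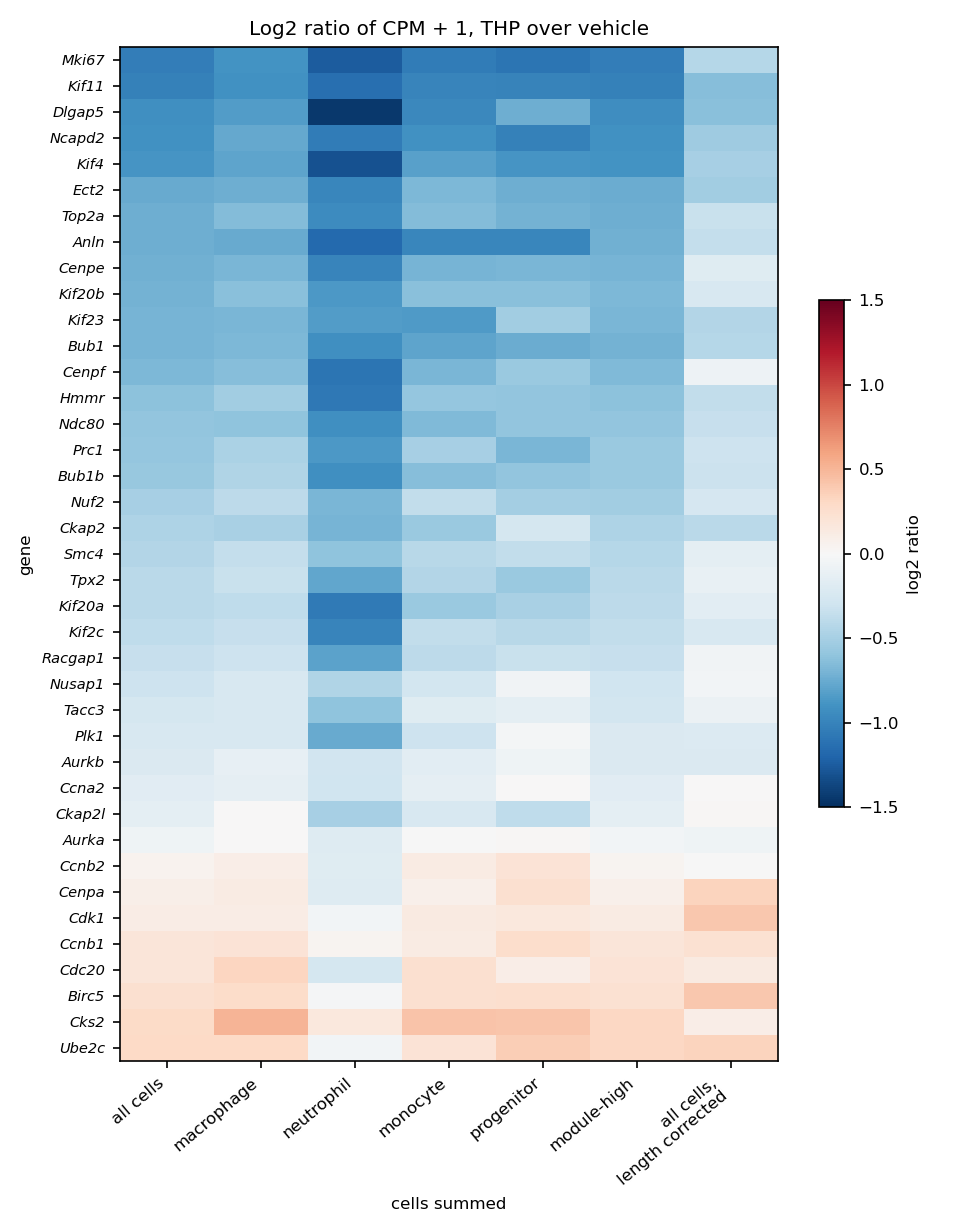
Log2 ratio of CPM + 1, THP over vehicle, of each member (rows, by their ratio in all cells) in all kept cells, in the 4 marker gates, in cells with at least 10 members after thinning (module-high), and in all cells after the correction for transcript length. The neutrophil column holds the lowest of the 4 gates for 38 members, and the length-corrected column is paler in the upper rows.

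The number of members per cell was counted next. Each cell was thinned to 5000 UMIs, which left out 1958 THP and 1966 vehicle cells as too shallow, and a cell with at least 10 of the 39 members was called module-high. This class is a range of a count and not a cell type: 11.3% of the THP and 9.07% of the vehicle cells had 8 to 11 members, close to its limit. Module-high cells were 5617 of 10165 in the THP library, 55.3% (54.3 to 56.2), and 5229 of 9012 in the vehicle library, 58.0% (57.0 to 59.0). Without thinning the shares of kept cells with at least 10 members were 60.9% and 61.9%. Cells with 0 members made up 6.12% and 4.86%.

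By gate, the module-high share was 54.7% with THP and 53.8% with vehicle in macrophages, intervals that overlapped. It was 56.4% and 60.0% in the cells of the neutrophil gate deep enough to thin, 626 of 1768 and 822 of 2165. Monocytes had 60.5% and 62.1%, and the intervals overlapped in these gates too. The widest gap was in progenitors, 59.0% (55.3 to 62.5) and 65.8% (62.7 to 68.8), with intervals that did not overlap.

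Module-high cells had a median of 17 members in the THP and 20 in the vehicle library, within a class that is set by this same count. Here too the longest and the shortest transcripts parted. With at least 4 of the 13 longest members as the rule, 51.9% of THP and 59.8% of vehicle cells were high. With at least 4 of the 13 shortest, the shares were 47.7% and 46.6%. These rules were chosen after the data were seen.

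**Figure D4:**
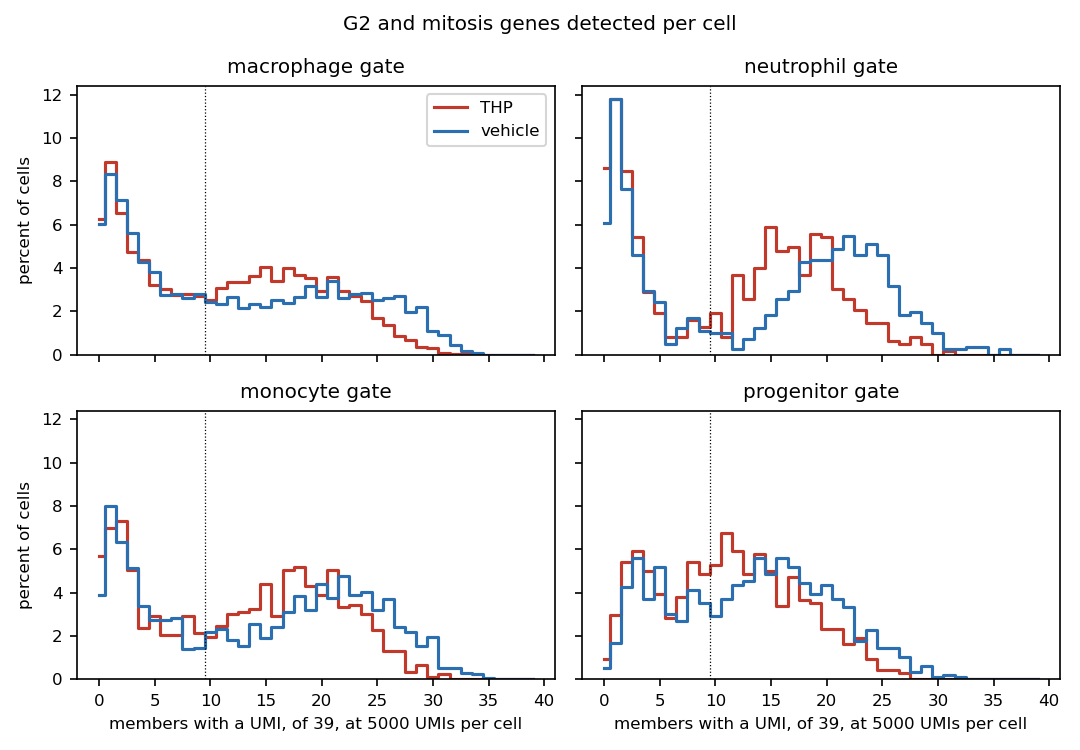
Percent of cells (y axis) by the number of the 39 members with a UMI after thinning to 5000 UMIs (x axis), in each marker gate, for the THP (red) and vehicle (blue) libraries; the dotted line marks the limit of 10 members. A group of cells with few members and a broad group above the limit are seen in each gate but least clearly in progenitors, and the upper group of the vehicle library extends further right.

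Module-high cells held most of the members' UMIs among the cells deep enough to thin. Their part ran from 81.4% for Ccnb2 to 96.4% for Cenpf in the THP library and from 85.0% for Ccnb2 to 98.1% for Nusap1 in the vehicle library. Within module-high cells the members summed to 6407 CPM with THP and 8117 CPM with vehicle. In the other cells they summed to 1103 and 1064 CPM. The rule for module-high cells uses the members themselves: it caps their level in the other cells of both libraries and ties the ratio in module-high cells to that in all cells, so nothing is read from either ratio. In module-high cells 2 members were 2-fold lower, against 2.8% of the genes tested there.

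Per module-high cell, a UMI of Mki67 was found in 79.5% of THP and 94.3% of vehicle cells at 5000 UMIs, with means of 1.91 and 3.86 UMIs. Kif11 was found in 36.7% and 55.1%. Detection of Ube2c went the other way, in 76.3% and 66.9% of module-high cells, with means of 2.79 and 2.18 UMIs. In all, 8 members were found in a larger share of module-high cells of the THP library and 31 in a smaller share. These cells were chosen by detection of the members, and the like split over all genes was not counted. Nothing is read from the split. The libraries also differed in depth, with median totals of 20873 and 22531 UMIs in module-high cells and 16034 and 17323 in the others.

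Mature neutrophils, which do not divide, served as the background for shares of cells with a UMI. Of their cells thinned to 1000 UMIs, 0.562% with THP and 2.12% with vehicle had 3 or more members, at median depths of 2208 and 1952 UMIs before thinning. In the macrophage gate, at medians of 21967 and 24450 UMIs, the shares at the same thinned depth were 51.4% and 52.5%. At least 1 member was found in 36.2% and 40.6% of the mature neutrophils and in 77.2% and 76.3% of the macrophage gate, so that a single UMI separates these cells less than 3 members do. Without thinning, the share of mature neutrophils with a UMI of a given member had a median over the members of 1.40% and 1.59%, reaching 19.4% and 18.6% for Cks2. Whether Cks2 in these cells was free RNA or their own was not tested; Ube2c was found in 7.87% and 5.48% of them and Top2a in 3.93% and 5.83%. Over all kept cells the median shares were 43.7% and 47.9%.

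Cells with S phase genes were counted in the same way. The gap in module-high cells moved with the limit, to 38.7% with THP and 46.4% with vehicle at 15 members or more. No other limit was tried for S phase genes, so the gaps of the 2 sets are not ranked. With at least 10 of 25 S phase genes at the same depth as the rule, 17.4% of cells (16.6 to 18.1) were S-high in the THP library and 28.2% (27.3 to 29.2) in the vehicle library. Of the module-high cells, 17.4% and 29.5% were S-high as well. The share with the G2 and mitosis genes alone was thus 45.6% with THP and 40.9% with vehicle. The S phase genes had a median ratio of -0.38 and 22 of 25 were lower, where 67.6% of all genes were. With TMM factors 18 were lower, where 40.2% of all genes were, and the median was -0.098. The part that this lower level has in the share of S-high cells was not tested.

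Other genes of the cell cycle were taken from 6 lists, to be read beside all genes tested, of which 2.97% were 2-fold lower and 67.6% below 0 (40.2% with TMM factors). Of the 25 S phase genes, 1 was 2-fold lower, a share near that of all genes. It was Dtl (17.7 against 40.6 CPM, -1.15), a part of the ubiquitin ligase that destroys Cdt1. In the list of G1 cyclins, kinases and inhibitors, 13 of 14 genes reached 10 CPM, 9 were lower and 4 higher, a split near that of all genes, and with TMM factors 7 were lower and 6 higher. Cdkn1b, for the inhibitor p27 (18.7 against 50.7 CPM, -1.40), and Rbl2, for the pocket protein p130 (17.0 against 37.3 CPM, -1.09), were 2-fold lower. Among 14 of 15 E2f, MuvB and Foxm1 regulators, 12 were lower (9 with TMM factors), and E2f8, a repressor of the family, was 2-fold lower (27.1 against 56.9 CPM, -1.04).

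The lists nearest to the members in function had few genes past 2-fold. In mitotic entry and exit control, 14 of 19 were lower with a median of -0.30, but 10 with TMM factors and a median of -0.019. None passed 2-fold, and Pttg1, for securin, which guards the cohesin cleaving enzyme until anaphase, was the highest at 0.51 (75.4 against 52.7 CPM). Of 17 further kinetochore and checkpoint genes 15 were lower, but 7 with TMM factors, and Knl1, the scaffold for Bub1, was the lowest at -0.96 (57.5 against 113 CPM). All 11 cohesin and other condensin genes were lower, 10 with TMM factors, with a median of -0.65, and Stag2 was 2-fold lower (53.1 against 113 CPM, -1.07). No gene of these 6 lists was 2-fold higher. Of the genes named in them as 2-fold lower, only Cdkn1b stayed past 2-fold with TMM factors (-1.11) and length corrected (-1.02). With TMM factors Dtl was at -0.87, Rbl2 at -0.80, Stag2 at -0.79 and E2f8 at -0.76.

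Genes outside the set with the most similar pattern were ranked by their fold in module-high over other cells, taking the lower fold of both libraries. The 15 highest were Aspm, Prr11, Cdc25b, Depdc1a, Pimreg, Fam83d, Kif18b, Sapcd2, Kif22, Kif14, Sgo2a, Nek2, Knl1, Depdc1b and Cep55. Aspm had 50.2 CPM in module-high and 3.46 CPM in other cells with THP, and 104 and 3.74 CPM with vehicle. Its ratio between the libraries over all cells was -1.04, and that of Kif14, also with a long transcript, was -1.14. Pimreg, with a transcript of 1513 bases, had a ratio of 0.03. Not all of the 15 followed length. Depdc1b, with 2563 bases, had a ratio of -0.66. Depdc1a (3323 bases) and Fam83d (3328 bases), of like length, had ratios of -0.56 and -0.06.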

How the data were processed

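The authors deposited whole-number UMI counts per gene and cell barcode; per the file headers they come from software version 3.1.0 in format version 2, and per the submitters' processing notes from Cell Ranger and STAR with mm10. The sources used here do not give the annotation release or the use of strand. Kept cells had at least 500 genes, 1000 UMIs and at most 10% mitochondrial UMIs. UMIs were summed per library and gate. A cell entered the gate whose marker share, relative to its mean, was highest and at least 2 times each other, with 3 markers detected. Mature neutrophils were neutrophil gate cells with 3 of 5 late markers (Retnlg, Cxcr2, Mmp8, Csf3r, Il1r2) and more UMIs in these than in Ngp, Camp and Ltf. The size rule was 10 CPM in a library and 2-fold on log2(CPM + 1). Intervals are exact Poisson, Clopper-Pearson or conditional binomial. Scaling factors came from edgeR 4.0.16 (TMM) and DESeq2 1.42.0, computed on all kept cells of each library. The log2 ratio, the length correction and the thinning were tested on simulated data (Python 3.11.15, numpy 2.4.6, scipy 1.17.1), and the other steps were not. Of the 31053 genes, 30934 were found in GENCODE M21. Values are printed for all members, up to 5 genes of each other cell cycle list with the largest ratio at 10 CPM or more, of which some are named, and 15 genes by their fold in module-high cells. Members and lists were chosen with earlier results of these data known.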

Additional observations from a re-analysis of the deposited data

Results flagged for a closer look

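For 3 members the log2 ratio, THP over vehicle, lay below 0 in the neutrophil gate and above 0 in the other 3 gates, each with a counting interval that did not include 0. The difference between the gates was not tested, since each gate had 1 library per group. The median over all genes tested, on CPM + 1, was also lowest in the neutrophil gate, -0.28 against -0.16 to -0.17 in the other 3. How many of all genes meet the same rule was not counted. Ccnb2 was at -0.19 (-0.33 to -0.05) in neutrophils and 0.21 (0.11 to 0.31) in progenitors. Cenpa was at -0.19 (-0.32 to -0.07) in neutrophils and 0.25 (0.16 to 0.33) in progenitors. Cdc20 was at -0.26 (-0.45 to -0.08) in neutrophils and 0.32 (0.28 to 0.36) in macrophages. With the TMM factors of all kept cells, which are not those of the gate, the values in neutrophils were 0.10, 0.09 and 0.02. These lay on the same side of 0 as in the other gates. The ratios of the 3 members are without the added 1 CPM.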

How the results depend on the processing

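No paired analysis was possible because each group had 1 library. The count of members 2-fold lower, 2 as reported, was 0 with TMM factors, DESeq2 size factors and the length correction, 1 with equal weight per cell and with the same mix of gates in both libraries, and 15 at 1.5-fold, which 17.3% of all genes tested also passed. The median ratio of the members was -0.16 with TMM and -0.16 with DESeq2 factors, -0.20 length corrected, -0.44 without the top 5% of cells by UMIs, -0.40 with equal weight and -0.45 with the same mix. The ratio of the sums, -0.35, was -0.060 and -0.067 with TMM and DESeq2 factors, -0.10 length corrected, -0.33 without the top 5%, -0.30 with equal weight, -0.33 with the same mix and -0.34 without the 5 members with most UMIs. In the macrophage gate (-0.28) it reversed to 0.0073 with TMM and 0.00093 with DESeq2 factors, and was -0.23 without the top 5%, -0.26 with equal weight, -0.051 length corrected and -0.29 with no gate margin. In the progenitor gate (-0.28) it reversed to 0.0079 and 0.0016, and was -0.048 length corrected and -0.26 with no margin. In the monocyte gate (-0.34) it was -0.052 and -0.058 with these factors, -0.32 without the top 5%, -0.29 with equal weight, -0.092 length corrected, -0.37 at a margin of 4 and -0.36 with none. In the neutrophil gate (-0.64) it was -0.36 with either factor, -0.52 with equal weight, -0.27 length corrected, -0.81 at a margin of 4 and -0.56 with none. The module-high share was 24.0% with THP and 32.4% with vehicle at 2000 UMIs, 69.0% and 71.1% at 10000, 60.9% and 61.9% unthinned, 69.6% and 71.9% with at least 5 members, 38.7% and 46.4% with at least 15, and 53.7% and 56.6% without the top 5%. By the 13 shortest members it was 47.7% and 46.6%, the one rule here with the THP share higher, and by the 13 longest 51.9% and 59.8%. The scaling factors add 1 constant to every ratio and the length correction a constant per length bin; the cause of the other shifts was not tested. The smallest count behind a member in a gate and library was 115 UMIs, so depth limits the neutrophil gate most.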
